A study of Mus musculus with 21 samples.

Results

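The mitosis and kinetochore genes described here are 40 mouse genes, chosen by symbol from a list of cyclins, mitotic kinases, kinetochore, spindle, cytokinesis and chromosome proteins. All 40 were found among the 47069 gene identifiers of the count table, and all 40 were among the 15581 genes with enough counts to be tested. The RNA came from bone-marrow-derived macrophages, cells grown with the growth factor M-CSF out of marrow that the labels give as from wild-type C57BL/6 mice aged 8 to 10 weeks. Interleukin 4 with interleukin 13 was given for 6 h (IL_6h) or 24 h (IL_24h), tumour necrosis factor alone for 6 h (TNF_6h) or 24 h (TNF_24h), and all of these cytokines together for 6 h (IL_TNF_6h) or 24 h (IL_TNF_24h), each at 10 ng/ml. Untreated macrophages sampled at 0 h (Ctrl_0h) were the reference. Each of the 7 groups had 3 libraries of total RNA, 21 in all, and no untreated group was sampled at 6 h or 24 h, so time in culture is part of every comparison with Ctrl_0h. No label states whether libraries of 1 group come from separate animals or cultures, and p-values then measure only the spread between these samples.

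Mitosis separates the copied chromosomes into daughter cells. Cyclin-dependent kinase 1 with its cyclins starts it, kinetochores on the centromeres join chromosomes to spindle microtubules, a checkpoint holds back separation until all chromosomes are attached, and the anaphase-promoting complex then marks cyclins for destruction. Most genes of this programme are transcribed late in the cell cycle and are silent in resting cells. The MuvB complex acts at the cell cycle homology region (CHR, TTTGAA), where it activates them late in the cycle together with B-Myb and FoxM1 and represses them in resting cells together with p130 and E2F4, and NF-Y activates them through CCAAT. Macrophages grown from bone marrow with M-CSF divide in culture, so RNA of these genes is a common readout of how many cells are cycling.

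Promoters are shown because CCAAT and TTTGAA are the motifs by which late cell cycle genes are known to be read. The 40 genes were chosen as genes of mitosis, so the shares of these motifs among them depend on that choice. A link between the motifs and the changes below was not tested. Of the 40 genes, 32 had a promoter in RefSeq, mouse build GRCm38.p6, taken as the 300 bases from 250 before to 50 after the start of the gene. Shares are of genes, and a gene with several promoters was counted where any of them matched. CCAAT was found on either strand in 24 of the 32 genes (75.0%), against 41.1% of all 27025 genes with a promoter. TTTGAA was found in 23 of the 32 (71.9%), against 20.2% of all genes, and both motifs stood together in 20 (62.5%), against 7.97%. The promoters of Aunip, Birc5, Nuf2, Nusap1 and Sapcd2 held neither motif, a share of 15.6%, against 47.7% of all genes. Matches on both strands were counted and could overlap, and a match describes letters in this window and nothing about binding. The lines below give 5 promoters from 5′ to 3′ on the strand of the gene, with CCAAT and TTTGAA in capitals on either strand (as ATTGG and TTCAAA on the opposite one). They belong to Ccnb2 (cyclin B2, chr9:70421505-70421804, minus strand), Plk1 (Polo-like kinase 1, chr7:122159185-122159484, plus strand), Cdc20 (the activator of the anaphase-promoting complex, chr4:118437294-118437593, minus strand), Prc1 (a bundler of midzone microtubules, chr7:80294201-80294500, plus strand) and Sapcd2 (chr2:25371785-25372084, plus strand), the last shown as one with neither motif.
Ccnb2: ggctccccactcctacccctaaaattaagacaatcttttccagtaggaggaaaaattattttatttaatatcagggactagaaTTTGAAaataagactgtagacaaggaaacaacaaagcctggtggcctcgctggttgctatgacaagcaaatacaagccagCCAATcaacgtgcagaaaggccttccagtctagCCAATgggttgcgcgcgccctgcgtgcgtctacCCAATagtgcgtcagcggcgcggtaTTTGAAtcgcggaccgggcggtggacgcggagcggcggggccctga
Plk1: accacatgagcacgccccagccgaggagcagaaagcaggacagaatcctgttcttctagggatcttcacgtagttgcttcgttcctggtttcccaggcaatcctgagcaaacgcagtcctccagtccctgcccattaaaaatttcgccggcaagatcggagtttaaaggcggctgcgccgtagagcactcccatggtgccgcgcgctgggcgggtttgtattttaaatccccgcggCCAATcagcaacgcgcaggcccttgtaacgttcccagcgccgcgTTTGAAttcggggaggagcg
Cdc20: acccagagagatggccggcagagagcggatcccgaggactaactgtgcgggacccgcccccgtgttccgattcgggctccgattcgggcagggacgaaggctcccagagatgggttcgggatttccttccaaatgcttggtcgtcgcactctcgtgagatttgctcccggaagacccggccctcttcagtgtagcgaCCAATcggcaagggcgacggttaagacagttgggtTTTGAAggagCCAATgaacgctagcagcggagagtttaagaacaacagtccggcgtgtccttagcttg
Prc1: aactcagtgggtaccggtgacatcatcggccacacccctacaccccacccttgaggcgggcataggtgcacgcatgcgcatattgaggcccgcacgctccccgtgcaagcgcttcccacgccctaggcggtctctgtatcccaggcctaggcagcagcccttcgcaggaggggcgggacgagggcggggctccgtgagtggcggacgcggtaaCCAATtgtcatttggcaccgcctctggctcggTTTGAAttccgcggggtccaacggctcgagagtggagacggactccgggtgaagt
Sapcd2: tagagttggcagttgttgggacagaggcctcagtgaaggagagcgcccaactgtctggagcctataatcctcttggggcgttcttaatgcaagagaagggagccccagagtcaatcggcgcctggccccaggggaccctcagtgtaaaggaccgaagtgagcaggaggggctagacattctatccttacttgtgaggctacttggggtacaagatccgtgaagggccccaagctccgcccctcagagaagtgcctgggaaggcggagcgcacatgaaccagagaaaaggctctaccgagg

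Ccnb2, which held 3 copies of CCAAT and 2 of TTTGAA, and Sapcd2, which held none, were both among the genes that fell in every 6 h comparison below. By motif class, the median log2 fold change of IL_6h against Ctrl_0h was -4.12 for the 20 genes with both motifs, -3.87 for the 4 with CCAAT alone, -4.56 for the 3 with TTTGAA alone and -6.15 for the 5 with neither. For TNF_6h against Ctrl_0h the same medians were -3.03, -2.81, -3.08 and -3.35. All classes were therefore lower at 6 h, and the classes are too small and too uneven to be set against one another.

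Levels are given in CPM, in which the counts of each library are divided by its total as adjusted by TMM (the trimmed mean of M values), and changes are log2 fold changes ± standard error. A gene was called where the adjusted p of the edgeR quasi-likelihood test was below 0.05. Library totals ran between 28063252 and 48654300 counts. All 10 macrophage markers checked were detected in every group. Their summed level ran between 12948 CPM in a library of IL_24h and 45613 CPM in a library of TNF_6h. The myeloid progenitor markers summed to at most 15.4 CPM in any library. Fibroblast and stromal markers summed to 12.8 CPM in library 2 of IL_6h and 9.78 CPM in library 3 of IL_TNF_6h, which also had 5.23 and 4.08 CPM of the collagen gene Col1a1, and to at most 5.61 CPM in any other library. That sum was in library 2 of Ctrl_0h, which also held the highest sums of B cell markers, 9.10 CPM, and of erythroid markers, 8.28 CPM, against at most 1.07 and 1.55 CPM in any other library. The part of such cells in the results was not tested. By sex-linked and strain-variable genes the libraries fell into 3 sets. Xist stood at 162 to 283 CPM in Ctrl_0h and both TNF groups and at 562 to 1014 CPM in IL_6h and IL_TNF_6h, and was at most 0.145 CPM in IL_24h and IL_TNF_24h, where Ddx3y, a gene of the Y chromosome, reached 41.8 to 50.9 CPM. Ifi202b, a gene known to be silent in C57BL/6 mice, stood at 30.3 to 64.2 CPM in IL_6h and IL_TNF_6h and at 0 in the other 15 libraries, which goes against the strain given for those 6 libraries. The sets are confounded with IL-4 and IL-13 and cannot be told apart from them. Comparisons within a set are those of the TNF groups with Ctrl_0h and with each other, and those of IL_TNF with IL at one time. The comparisons of IL groups with Ctrl_0h, with TNF groups and across time lie between sets.

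The summed level of the 40 genes fell at 6 h under every treatment and was higher again at 24 h in all but 1 of the 9 libraries. It was 152, 177 and 150.7 CPM in IL_6h, 306, 331 and 296 CPM in TNF_6h, and 132, 134 and 177 CPM in IL_TNF_6h, against 2626, 2333 and 2813 CPM in Ctrl_0h. At 24 h it was 1125, 1172 and 1142 CPM in IL_24h, 1948, 1579.6 and 1854 CPM in TNF_24h, and 139, 714 and 634 CPM in IL_TNF_24h. Set against the mean of Ctrl_0h, the 6 h sums were 6.17% in IL_6h, 11.99% in TNF_6h and 5.70% in IL_TNF_6h, and the 24 h sums were 44.3%, 69.2% and 19.1% under the same treatments. The 3 groups at 24 h did not overlap in the sum, nor did any of them overlap with Ctrl_0h. In RNA from whole cultures, fewer dividing cells and less of each RNA per dividing cell cannot be told apart.

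**Figure D1:**
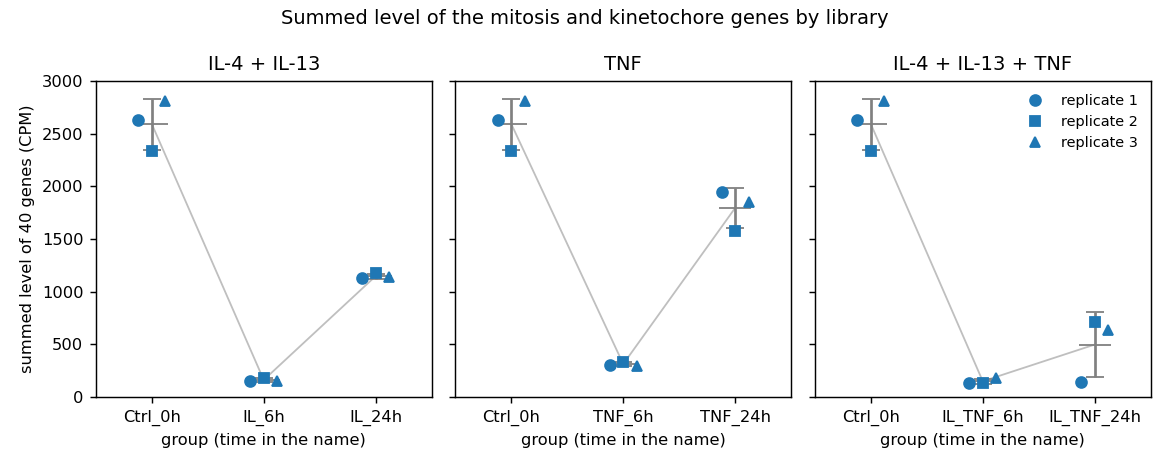
Summed level of the 40 mitosis and kinetochore genes in CPM (y axis) by group in order of time (x axis), 1 panel per treatment, with a symbol for each library and a bar for the mean and SD of each group. The 6 h libraries lie between 132 and 331 CPM, against 2333 to 2813 CPM in Ctrl_0h, and library 1 of IL_TNF_24h lies at 139 CPM, far under libraries 2 and 3.

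Library 1 of IL_TNF_24h stood apart from libraries 2 and 3 of its group. In it 25 of the 40 genes were no higher than the highest library of IL_TNF_6h, and the median gene stood at 4.31% of the Ctrl_0h mean, against 26.6% and 21.9% in libraries 2 and 3. It also had 269 CPM of Nos2 (inducible nitric oxide synthase) and 72.9 CPM of Retnla (a gene induced by IL-4), where libraries 2 and 3 had 46.2 and 44.6 CPM of Nos2 and 315 and 273 CPM of Retnla. Its Ddx3y level of 42.6 CPM was that of its set. Without it the summed level of IL_TNF_24h was 674 CPM, or 26.0% of Ctrl_0h. This library also enters the estimate of the spread that all comparisons share. Values that rest on this group, and calls of named genes that change when it is left out, are therefore followed by the value without library 1, which means that of IL_TNF_24h where no group is named. In Ctrl_0h, library 2 had counts in 27761 genes, against 16996 to 20631 in the other 20 libraries. Its levels of Kif20a, Prc1 and Ect2 were 37.5%, 33.8% and 54.5% of the mean of libraries 1 and 3, where the other 37 genes ran between 65.2% and 112%.

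At 6 h all 40 genes fell in IL_6h, in TNF_6h and in IL_TNF_6h against Ctrl_0h. The background is wide, since 31.6% of all genes tested were lowered in IL_6h, 20.5% in TNF_6h and 33.4% in IL_TNF_6h. In each comparison, every library of the 6 h group was below every library of Ctrl_0h for all 40 genes, which held for 30.4% of genes tested in IL_6h, 24% in TNF_6h and 32.8% in IL_TNF_6h. The median log2 fold change of the 40 genes was -4.40 in IL_6h, -3.14 in TNF_6h and -4.95 in IL_TNF_6h, while the median over all genes tested was -0.01, -0.04 and -0.03. These comparisons share the Ctrl_0h libraries and are not independent of one another. Of the 3 groups at 6 h, TNF_6h had the highest mean for 34 of the 40 genes.

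**Figure D2:**
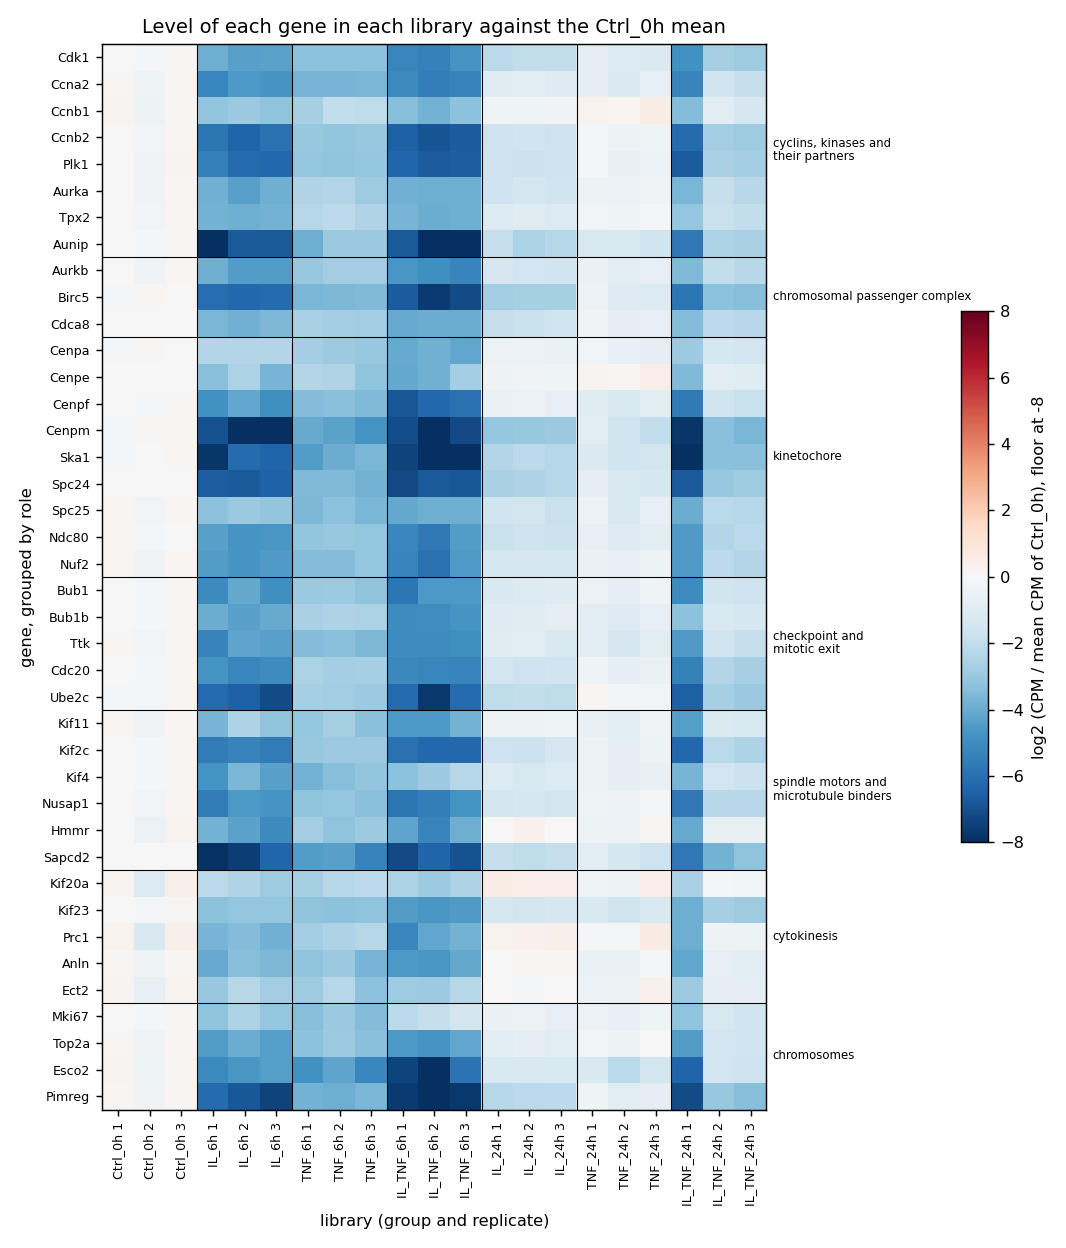
Level of each of the 40 genes (rows, grouped by role) in each of the 21 libraries (columns), as log2 of CPM over the mean CPM of Ctrl_0h, with values under -8 drawn at -8. The 6 h columns are low for all 40 genes, and in library 1 of IL_TNF_24h 25 of the 40 genes are no higher than in the highest IL_TNF_6h library.

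The cyclins, mitotic kinases and their partners (8 genes) all fell at 6 h, and their median level was 4.58% of Ctrl_0h in IL_6h, 11.8% in TNF_6h and 2.71% in IL_TNF_6h. Cdk1, the kinase that drives entry into mitosis, had 8.53, 6.33 and 6.61 CPM in IL_6h, 13.2, 13.1 and 13.2 in TNF_6h and 3.39, 2.99 and 4.75 in IL_TNF_6h, against 127, 121 and 133 in Ctrl_0h. At 24 h Cdk1 had 29.1, 33.1 and 33.0 CPM in IL_24h, 76.4, 58.6 and 56.0 in TNF_24h and 4.39, 20.0 and 17.5 in IL_TNF_24h. No 6 h library reached any Ctrl_0h library, and at 24 h all 9 libraries were still under Ctrl_0h. Its log2 fold change against Ctrl_0h was -4.15 ± 0.36 in IL_6h, -3.27 ± 0.34 in TNF_6h and -5.10 ± 0.38 in IL_TNF_6h, and -2.00 ± 0.32, -0.997 ± 0.31 and -3.18 ± 0.34 at 24 h under the same treatments (-2.70 in IL_TNF_24h without library 1), all called (largest adjusted p 0.0143).

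Ccnb1, cyclin B1, the partner of Cdk1 in early mitosis, had the smallest fall of the 40 genes in TNF_6h. It had 3.51, 4.0 and 3.45 CPM in IL_6h, 5.09, 8.203 and 7.67 in TNF_6h and 3.07, 2.29 and 3.33 in IL_TNF_6h, against 36.7, 24.4 and 34.8 in Ctrl_0h. At 24 h Ccnb1 had 25.6, 25.4 and 25.9 CPM in IL_24h, 38.5, 34.98 and 47.3 in TNF_24h and 2.87, 17.3 and 12.6 in IL_TNF_24h. Its log2 fold change against Ctrl_0h was -2.19 ± 0.38 in TNF_6h and 0.33 ± 0.36 in TNF_24h, the highest value of the 40 genes there but not called (adjusted p 0.472). Cyclin B1 libraries of TNF_24h overlapped with those of Ctrl_0h, and cyclin B1 was called lower than Ctrl_0h at 24 h in IL_TNF_24h (log2 -1.54 ± 0.37, adjusted p 0.0012; -1.04 without library 1). Plk1, which acts in spindle formation and mitotic exit, had 1.72, 1.03 and 0.948 CPM in IL_6h, 8.95, 8.14 and 8.87 in TNF_6h and 0.911, 0.754 and 0.767 in IL_TNF_6h, against 74.8, 61.6 and 88.4 in Ctrl_0h. At 24 h Plk1 had 23.6, 23.2 and 23.7 CPM in IL_24h, 66.7, 50.4 and 55.3 in TNF_24h and 0.732, 12.1 and 11.6 in IL_TNF_24h. Its fall was deeper with IL-4 and IL-13 than with TNF, by -2.79 ± 0.55 on the log2 scale at 6 h (adjusted p 0.00025) and by -1.29 ± 0.47 at 24 h (adjusted p 0.0232). Ccnb2 moved like Plk1, with 1.55% of Ctrl_0h in IL_6h and 11.96% in TNF_6h, and 32.0% in IL_24h and 81.7% in TNF_24h. Ccna2 (cyclin A2), Aurka (the spindle pole kinase Aurora A) and Tpx2 (its activator on microtubules) stood at 51.7%, 34.1% and 48.0% in IL_24h, and at 56.4%, 76.0% and 85.2% in TNF_24h.

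Aunip, whose human counterpart binds Aurora A, was the least abundant of these genes after IL-4 and IL-13. It had 0.0442, 0.114 and 0.115 CPM in IL_6h, 0.804, 1.52 and 1.55 in TNF_6h and 0.114, 0 and 0.0480 in IL_TNF_6h, against 12.1, 11.3 and 12.9 in Ctrl_0h. At 24 h Aunip had 3.15, 2.11 and 2.46 CPM in IL_24h, 5.05, 5.25 and 4.04 in TNF_24h and 0.225, 2.08 and 1.96 in IL_TNF_24h. Few counts lie behind its 6 h values with IL-4 and IL-13, and all of them were under the TNF_6h libraries. The difference of IL_6h and TNF_6h was -3.81 ± 0.67 on the log2 scale, the largest of the 40 genes in that comparison (adjusted p 7.74e-05). Its rise between 6 h and 24 h in the IL_TNF groups, 4.72 ± 0.72, was the largest of the 40 genes (adjusted p 4.56e-05), as it was without library 1 (5.21).

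The chromosomal passenger complex corrects faulty attachments and directs cytokinesis, and its 3 genes here fell at 6 h in every comparison. Aurkb, its kinase Aurora B, had 6.36, 4.39 and 4.31 CPM in IL_6h, 11.6, 13.6 and 13.9 in TNF_6h and 3.81, 3.24 and 2.45 in IL_TNF_6h, against 98.9, 79.6 and 107 in Ctrl_0h. At 24 h Aurkb had 37.4, 32.9 and 31.6 CPM in IL_24h, 67.4, 52.3 and 59.2 in TNF_24h and 8.11, 24.2 and 20.1 in IL_TNF_24h. All 9 libraries at 24 h were under the lowest Ctrl_0h library, and Aurkb was called lower than Ctrl_0h in IL_24h (log2 -1.49 ± 0.26), in TNF_24h (-0.68 ± 0.26) and in IL_TNF_24h (-2.44 ± 0.27, or -2.05 without library 1; largest adjusted p 0.0396). Birc5, survivin, had 2.28, 1.97 and 2.18 CPM in IL_6h, 12.1, 12.6 and 13.4 in TNF_6h and 1.51, 0.754 and 1.08 in IL_TNF_6h, against 142, 163 and 154 in Ctrl_0h. At 24 h Birc5 had 22.5, 24.0 and 24.7 CPM in IL_24h, 109, 73.8 and 70.6 in TNF_24h and 2.79, 16.0 and 14.6 in IL_TNF_24h. Survivin RNA stood lower in IL_24h than in TNF_24h, by -1.83 ± 0.36 on the log2 scale (adjusted p 0.000214). Its rise between 6 h and 24 h was 3.47 ± 0.40 under IL-4 and IL-13 and 2.73 ± 0.37 under TNF, and the difference of these rises, 0.74 ± 0.52, was not called (adjusted p 0.352, or 0.0335 without library 1). Cdca8, borealin, which targets the complex to centromeres, had 7.55, 6.83 and 8.04 CPM in IL_6h, 15.8, 14.6 and 14.1 in TNF_6h and 6.01, 6.11 and 6.21 in IL_TNF_6h, against 97.3, 93.1 and 98.2 in Ctrl_0h. At 24 h Cdca8 had 25.3, 28.5 and 31.3 CPM in IL_24h, 78.1, 57.3 and 60.3 in TNF_24h and 8.84, 22.3 and 20.4 in IL_TNF_24h. Its difference between IL_TNF_24h and IL_24h, -0.72 ± 0.21, was the smallest among the 40 genes and was called (adjusted p 0.0319). Without library 1 it was -0.41 and not called (adjusted p 0.0686), and Aunip had the smallest, -0.35.

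The 9 kinetochore genes all fell at 6 h and spread widely. Cenpa, the histone H3 variant that marks centromeres, had 21.9, 21.8 and 21.5 CPM in IL_6h, 16.6, 14.6 and 13.4 in TNF_6h and 6.80, 7.69 and 6.23 in IL_TNF_6h, against 103, 118 and 108 in Ctrl_0h. At 24 h Cenpa had 78.2, 77.7 and 74.5 CPM in IL_24h, 93.5, 69.2 and 67.3 in TNF_24h and 14.7, 40.9 and 37.9 in IL_TNF_24h. Its fall in IL_6h, -2.34 ± 0.24 on the log2 scale, was the smallest of the 40 genes there, and the IL_6h libraries lay above those of TNF_6h by 0.55 ± 0.24, which was not called (adjusted p 0.0563, or 0.00222 without library 1). With TNF added, Cenpa in IL_TNF_6h was lower than in IL_6h by -1.65 ± 0.25 (adjusted p 7.18e-05), and no library of these 2 groups overlapped. Cenpm, a subunit of the inner kinetochore, had 0.486, 0.183 and 0.230 CPM in IL_6h, 3.72, 3.16 and 2.27 in TNF_6h and 0.455, 0.195 and 0.408 in IL_TNF_6h, against 54.8, 64.7 and 64.1 in Ctrl_0h. At 24 h Cenpm had 7.03, 7.52 and 7.70 CPM in IL_24h, 32.5, 20.0 and 15.8 in TNF_24h and 0.281, 5.91 and 4.81 in IL_TNF_24h. It had the deepest fall of the 40 genes in IL_6h (-7.63 ± 0.69) and was the lowest of them against Ctrl_0h in IL_24h (-3.04 ± 0.51) and in IL_TNF_24h (-4.05 ± 0.54), with adjusted p of 2.11e-08, 4.2e-05 and 2.73e-06. Without library 1 it remained the lowest in IL_TNF_24h, at -3.46.

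Cenpe, a kinesin that carries chromosomes to the spindle equator, had 3.69, 6.51 and 2.84 CPM in IL_6h, 7.17, 7.10 and 4.02 in TNF_6h and 2.13, 2.60 and 5.66 in IL_TNF_6h, against 36.1, 36.6 and 38.8 in Ctrl_0h. At 24 h Cenpe had 28.3, 31.1 and 28.8 CPM in IL_24h, 43.1, 39.4 and 52.8 in TNF_24h and 3.24, 20.0 and 18.8 in IL_TNF_24h. All 3 TNF_24h libraries lay above all Ctrl_0h libraries, and the difference of 0.28 ± 0.43 was not called (adjusted p 0.629). Such a lack of overlap upwards held for 23.5% of all genes tested in that comparison and for Cenpe alone among the 40. The Ndc80 complex, which grips the microtubule end, was represented by Ndc80, Nuf2, Spc24 and Spc25. Ndc80 had 2.25, 1.74 and 1.78 CPM in IL_6h, 5.16, 5.58 and 5.43 in TNF_6h and 1.20, 0.851 and 2.06 in IL_TNF_6h, against 47.5, 41.5 and 47.3 in Ctrl_0h. At 24 h Ndc80 had 13.1, 14.3 and 13.6 CPM in IL_24h, 28.3, 22.3 and 25.3 in TNF_24h and 1.94, 8.995 and 10.2 in IL_TNF_24h. All 9 of its libraries at 24 h were under Ctrl_0h, and Ndc80 was called lower in IL_24h (log2 -1.73 ± 0.35, adjusted p 0.000282) but not in TNF_24h (-0.85 ± 0.34, adjusted p 0.0523, or 0.00195 without library 1).

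Spc24 had 0.641, 0.594 and 0.718 CPM in IL_6h, 5.33, 5.46 and 4.50 in TNF_6h and 0.427, 0.584 and 0.575 in IL_TNF_6h, against 65.0, 61.6 and 61.2 in Ctrl_0h. At 24 h Spc24 had 10.2, 11.1 and 12.7 CPM in IL_24h, 35.9, 27.2 and 23.1 in TNF_24h and 0.591, 7.78 and 8.61 in IL_TNF_24h. Spc25, which pairs with Spc24 in the complex, had 4.26, 5.37 and 4.71 CPM in IL_6h, 3.48, 4.30 and 3.27 in TNF_6h and 2.45, 2.80 and 2.81 in IL_TNF_6h, against 44.2, 35.3 and 45.5 in Ctrl_0h. Levels of the pair diverged in IL_6h, where Spc24 stood at 1.04% of Ctrl_0h and Spc25 at 11.5%, while in TNF_6h they were at 8.14% and 8.84%. At 24 h Spc25 had 14.1, 15.1 and 12.3 CPM in IL_24h, 30.5, 17.5 and 26.4 in TNF_24h and 2.65, 9.44 and 8.71 in IL_TNF_24h. Its rise between IL_6h and IL_24h, 1.53 ± 0.30, was the smallest of the 40 genes (adjusted p 0.000749). Nuf2 stood at 38.0% of Ctrl_0h in IL_24h, 69.0% in TNF_24h and 15.8% in IL_TNF_24h (21.5% without library 1), above both Ndc80 and Spc24. Ska1, which helps the Ndc80 complex follow shrinking microtubules, had 0.0663, 0.206 and 0.172 CPM in IL_6h, 0.670, 0.925 and 1.17 in TNF_6h and 0.0854, 0.0487 and 0.0480 in IL_TNF_6h, against 13.2, 15.2 and 15.9 in Ctrl_0h. Its fall in IL_TNF_6h, -7.88 ± 0.70, was the deepest of the 40 genes there and rests on very few counts (adjusted p 1.21e-08). At 24 h Ska1 had 2.96, 3.52 and 3.09 CPM in IL_24h, 6.63, 5.01 and 5.23 in TNF_24h and 0.0563, 1.47 and 1.48 in IL_TNF_24h. Cenpf, a large protein of the outer kinetochore and nuclear envelope, stood at 67.6% of Ctrl_0h in IL_24h and 49.4% in TNF_24h, with all IL_24h libraries above all TNF_24h libraries and a difference of 0.45 ± 0.47 that was not called (adjusted p 0.422, or 0.034 without library 1).

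Among the checkpoint and mitotic exit genes, Bub1, a kinase of the spindle checkpoint, had 0.839, 1.69 and 0.948 CPM in IL_6h, 3.69, 3.88 and 3.06 in TNF_6h and 0.512, 1.17 and 1.20 in IL_TNF_6h, against 30.0, 25.3 and 30.9 in Ctrl_0h. At 24 h Bub1 had 12.3, 13.6 and 14.0 CPM in IL_24h, 20.8, 17.1 and 22.5 in TNF_24h and 0.873, 9.63 and 8.92 in IL_TNF_24h. Bub1b, the checkpoint protein BubR1, had 5.08, 3.95 and 4.97 CPM in IL_6h, 13.4, 14.6 and 13.8 in TNF_6h and 2.45, 2.55 and 2.97 in IL_TNF_6h, against 79.9, 71.2 and 88.2 in Ctrl_0h. At 24 h Bub1b had 38.7, 40.4 and 45.5 CPM in IL_24h, 44.0, 39.2 and 49.6 in TNF_24h and 8.19, 34.5 and 30.5 in IL_TNF_24h, so that IL_24h and TNF_24h overlapped although IL_6h had been below TNF_6h in every library. Its rise between TNF_6h and TNF_24h, 1.67 ± 0.31, was the smallest of the 40 genes under TNF (adjusted p 0.00046). Ttk, the checkpoint kinase Mps1, stood at 50.6% of Ctrl_0h in IL_24h and 50.1% in TNF_24h. Cdc20, whose promoter is shown above, had 3.56, 2.47 and 2.82 CPM in IL_6h, 15.7, 13.7 and 14.7 in TNF_6h and 2.62, 2.48 and 2.40 in IL_TNF_6h, against 90.2, 83.9 and 102 in Ctrl_0h. At 24 h Cdc20 had 32.0, 29.6 and 31.0 CPM in IL_24h, 73.2, 56.4 and 63.7 in TNF_24h and 2.14, 17.8 and 14.5 in IL_TNF_24h. Ube2c, the ubiquitin-conjugating enzyme of the anaphase-promoting complex, had 1.502, 1.23 and 0.776 CPM in IL_6h, 17.5, 16.6 and 14.7 in TNF_6h and 1.48, 0.535 and 1.53 in IL_TNF_6h, against 107, 105 and 125 in Ctrl_0h. At 24 h Ube2c had 27.9, 29.0 and 27.8 CPM in IL_24h, 124, 96.9 and 96.6 in TNF_24h and 1.21, 18.1 and 14.6 in IL_TNF_24h. Ube2c showed the largest difference between the treatments at 24 h, since the TNF_24h libraries lay near Ctrl_0h (log2 -0.09 ± 0.47, adjusted p 0.902) and IL_24h lay below TNF_24h by -1.90 ± 0.48 (adjusted p 0.00226).

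The 6 spindle genes fell together at 6 h. Sapcd2, known for a part in orienting the spindle, had 0.0884, 0.114 and 0.259 CPM in IL_6h, 0.938, 1.01 and 0.516 in TNF_6h and 0.142, 0.243 and 0.168 in IL_TNF_6h, against 20.4, 21.4 and 20.9 in Ctrl_0h. At 24 h Sapcd2 had 5.78, 5.16 and 5.67 CPM in IL_24h, 11.1, 7.84 and 6.65 in TNF_24h and 0.394, 1.52 and 2.25 in IL_TNF_24h. Its rise between 6 h and 24 h was the largest of the 40 genes under IL-4 and IL-13 (5.20 ± 0.49) and under TNF (3.36 ± 0.41), with adjusted p of 1.69e-07 and 6.31e-06. Its difference between IL_TNF_24h and IL_24h was the largest fall of the 40 genes there (-1.98 ± 0.37, adjusted p 0.00103), also without library 1 (-1.55). Kif11, the kinesin that pushes spindle poles apart, stood at 75.7% of Ctrl_0h in IL_24h, 67.6% in TNF_24h and 30.6% in IL_TNF_24h (43.4% without library 1). Kif2c, a microtubule depolymerase at centromeres, and Nusap1, which bundles microtubules near chromosomes, stood lower in IL_24h, at 34.3% and 36.5%, than in TNF_24h, at 69.9% and 82.3%. The difference was called for Nusap1 (log2 -1.17 ± 0.45, adjusted p 0.0319) and not for Kif2c (-1.03 ± 0.45, adjusted p 0.0578, or 1.12e-06 without library 1). Hmmr, a spindle-binding hyaluronan receptor, had 1.15, 0.823 and 0.460 CPM in IL_6h, 2.28, 1.73 and 2.10 in TNF_6h and 0.854, 0.414 and 1.05 in IL_TNF_6h, against 16.2, 11.6 and 19.5 in Ctrl_0h. At 24 h Hmmr had 16.3, 20.3 and 15.9 CPM in IL_24h, 12.1, 11.4 and 17.1 in TNF_24h and 0.957, 10.7 and 10.5 in IL_TNF_24h. Its levels at 24 h overlapped with Ctrl_0h in IL_24h and TNF_24h, and it was 1 of the 3 genes not called lower in IL_TNF_24h (log2 -1.09 ± 0.49, adjusted p 0.0588; -0.52 without library 1).

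Among the roles, the 5 cytokinesis genes had the median nearest to untreated levels at 24 h, although Kif23 was far below it. Their median was 109% of Ctrl_0h in IL_24h, 91.9% in TNF_24h and 43.4% in IL_TNF_24h (59.4% without library 1), where the medians over all 40 genes were 37.8%, 68.4% and 18.7% (23.9% without library 1). Anln, anillin, the scaffold of the contractile ring, had 2.01, 3.09 and 2.73 CPM in IL_6h, 3.45, 4.12 and 2.48 in TNF_6h and 1.34, 1.31 and 1.92 in IL_TNF_6h, against 34.7, 26.3 and 37.2 in Ctrl_0h. At 24 h Anln had 34.1, 36.3 and 37.0 CPM in IL_24h, 22.2, 22.8 and 30.0 in TNF_24h and 1.86, 21.1 and 17.8 in IL_TNF_24h. All IL_24h libraries lay above all TNF_24h libraries, and the difference of 0.52 ± 0.45 was not called (adjusted p 0.335, or 0.029 without library 1). Kif20a, a kinesin of the central spindle, had 3.40, 2.93 and 2.18 CPM in IL_6h, 2.41, 3.16 and 3.58 in TNF_6h and 2.70, 2.07 and 2.78 in IL_TNF_6h, against 17.98, 7.34 and 21.1 in Ctrl_0h. At 24 h Kif20a had 23.3, 22.8 and 22.2 CPM in IL_24h, 11.9, 11.7 and 22.5 in TNF_24h and 2.59, 14.6 and 13.2 in IL_TNF_24h. Its IL_24h libraries were above all Ctrl_0h libraries, the low library 2 included, which held for 35.9% of genes tested, and its difference of 0.55 ± 0.43 was the highest of the 40 genes in IL_24h against Ctrl_0h but was not called (adjusted p 0.265). In IL_TNF_24h it was the highest of the 40 genes as well and again not called (-0.61 ± 0.43, adjusted p 0.225; -0.10 without library 1).

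Prc1 had 1.77, 2.06 and 1.61 CPM in IL_6h, 3.45, 4.15 and 4.64 in TNF_6h and 0.626, 1.31 and 1.70 in IL_TNF_6h, against 27.9, 9.97 and 31.1 in Ctrl_0h. At 24 h Prc1 had 27.6, 29.7 and 30.9 CPM in IL_24h, 21.1, 20.6 and 35.6 in TNF_24h and 1.55, 17.3 and 17.2 in IL_TNF_24h. Library 2 of Ctrl_0h was the lowest of its group for Prc1, and Prc1 was not called at 24 h in IL_24h, TNF_24h or IL_TNF_24h (log2 0.35 ± 0.52, 0.16 ± 0.52 and -0.93 ± 0.53, the last -0.36 without library 1). Set against libraries 1 and 3 of Ctrl_0h alone, the IL_24h means of Kif20a, Prc1, Anln and Ect2 were 116%, 99.6%, 99.6% and 83.1%, and the TNF_24h means were 78.8%, 87.4%, 69.6% and 77.9%. Ect2, the exchange factor that activates RhoA at the division plane, stood at 97.9% in IL_24h and 91.9% in TNF_24h with all 3 Ctrl_0h libraries. Kif23, the motor of the centralspindlin complex, was the exception in this group, at 37.5% of Ctrl_0h in IL_24h, 39.95% in TNF_24h and 12.3% in IL_TNF_24h (15.01% without library 1), and was called lower in all 3 (log2 -1.41 ± 0.20, -1.32 ± 0.20 and -3.02 ± 0.21, the last -2.68 without library 1, largest adjusted p 2e-05). Kif20a shares 4930 bases of its span with Cdc23 and 240 with Brd8, and Prc1 shares 21669 with Rccd1. In all, 8 of the 40 genes overlap another coding gene. The strand setting of the counting is not given in the sources used here, so how reads in shared spans were counted is not known. The part of such reads in these values was not tested.

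Among the chromosome genes, Mki67, which encodes Ki-67, the coat protein of mitotic chromosomes, had 22.8, 36.4 and 24.6 CPM in IL_6h, 19.9, 26.7 and 18.9 in TNF_6h and 49.4, 55.2 and 76.9 in IL_TNF_6h, against 205, 197 and 223 in Ctrl_0h. At 24 h Mki67 had 143, 152 and 132 CPM in IL_24h, 150.4, 134 and 161 in TNF_24h and 22.3, 84.8 and 68.1 in IL_TNF_24h. IL_TNF_6h was the highest of the 6 h groups in every library, and Mki67 had the smallest fall of the 40 genes there (-1.79 ± 0.31). Top2a, the topoisomerase that untangles sister chromatids, had 10.3, 14.7 and 10.9 CPM in IL_6h, 23.4, 30.4 and 22.4 in TNF_6h and 9.22, 8.59 and 12.6 in IL_TNF_6h, against 237, 191 and 253 in Ctrl_0h. At 24 h Top2a had 119.6, 129 and 122 CPM in IL_24h, 196, 170.1 and 221 in TNF_24h and 10.2, 79.6 and 75.5 in IL_TNF_24h. Top2a was called lower than Ctrl_0h at 24 h in IL_TNF_24h (log2 -2.04 ± 0.43, adjusted p 0.000352; -1.49 without library 1), while in IL_24h the difference was -0.88 ± 0.41 (adjusted p 0.0698, or 0.000289 without library 1) and in TNF_24h -0.22 ± 0.41 (adjusted p 0.698). Esco2, which acetylates cohesin, had 0.420, 0.571 and 0.661 CPM in IL_6h, 0.503, 0.776 and 0.378 in TNF_6h and 0.0854, 0.0487 and 0.240 in IL_TNF_6h, against 16.2, 11.1 and 15.4 in Ctrl_0h. At 24 h Esco2 had 6.10, 5.98 and 6.09 CPM in IL_24h, 6.08, 3.19 and 5.16 in TNF_24h and 0.169, 4.91 and 4.45 in IL_TNF_24h. It had the deepest fall of the 40 genes in TNF_6h (-4.67 ± 0.68) and was the lowest of them in TNF_24h against Ctrl_0h (-1.56 ± 0.57, adjusted p 0.0303). Pimreg, whose human counterpart binds the clathrin assembly protein CALM, stood at 22.3% in IL_24h, 63.2% in TNF_24h and 7.53% in IL_TNF_24h (10.9% without library 1).

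Between 6 h and 24 h all 40 genes rose in IL_24h against IL_6h and all 40 in TNF_24h against TNF_6h, with medians of 3.41 and 2.61 on the log2 scale. Among all genes tested, 12.2% were raised in the IL pair and 12.7% in the TNF pair. For all 40 genes every 24 h library was above every 6 h library in both pairs, which held for 21.9% and 21.5% of genes tested. In IL_TNF_24h against IL_TNF_6h, 38 of the 40 genes rose, with a median of 2.64, where 15.4% of all genes tested were raised. For 15 of the 40 genes no library overlapped, against 21.5% of genes tested, and for the other 25 library 1 of IL_TNF_24h was no higher than the highest IL_TNF_6h library. For 6 of these 25 it was below all IL_TNF_6h libraries. The 2 genes not called were Mki67 (-0.05 ± 0.31, adjusted p 0.93) and Kif4, a kinesin on chromosome arms (0.71 ± 0.37, adjusted p 0.169). Without library 1, 39 genes rose with a median of 3.15, against 14.2% of genes tested, and Mki67 remained uncalled at 0.34 (adjusted p 0.262). The IL and IL_TNF pairs lie across the sets of libraries, and the TNF pair within one.

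Against Ctrl_0h at 24 h, 26 of the 40 genes in IL_24h, 13 in TNF_24h and 37 in IL_TNF_24h were still called lower. No gene was called higher in any of the 3. The lack of a call does not mean a full return, since Top2a, at 54.5% of Ctrl_0h in IL_24h, was not called. Among all genes tested, 32.6% were lowered in IL_24h, 24.4% in TNF_24h and 32.3% in IL_TNF_24h. Without library 1, 32, 21 and 36 genes were called lower, where the shares of all genes tested were 31.8%, 21.6% and 28%, and the median standard error of the 40 genes in TNF_24h against Ctrl_0h was 0.18 in place of 0.41. With all libraries the count in TNF_24h, 13 of 40 or 32.5%, stood nearer to its share of all genes. It depended on other single libraries too, being 2 or 3 without library 2 or 3 of TNF_24h and 6 or 5 without library 1 or 3 of Ctrl_0h. In the same order, 2849 of 16508, 2987 of 16510, 3860 of 16487 and 3911 of 16499 genes tested were lowered. The 40 genes were then called less often than genes at large. Means above that of Ctrl_0h were found for Anln, Hmmr, Prc1 and Kif20a in IL_24h, for Ccnb1, Cenpe and Prc1 in TNF_24h, and for none of the 40 genes in IL_TNF_24h. By role, the median of cyclins and kinases stood at 33.0% in IL_24h and 76.4% in TNF_24h, passenger complex genes at 29.5% and 62.6%, kinetochore genes at 33.2% and 55.6%, checkpoint and exit genes at 46.4% and 70.1%, spindle genes at 40.8% and 68.8% and chromosome genes at 48.5% and 67.2%.

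**Figure D3:**
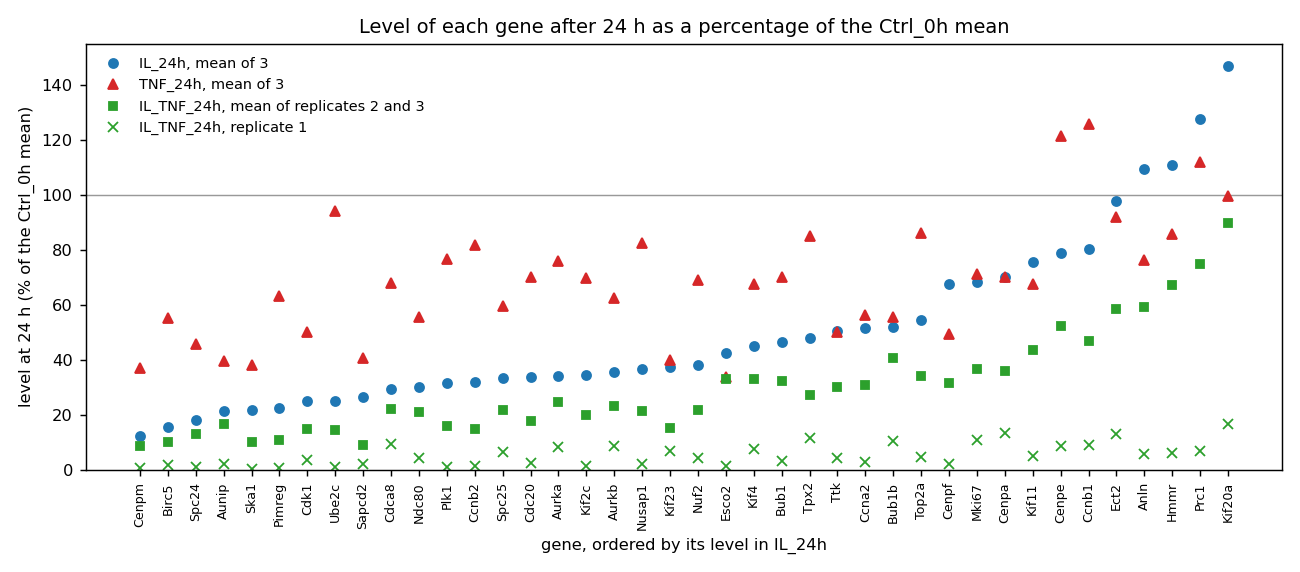
Level at 24 h as a percentage of the Ctrl_0h mean (y axis) for each of the 40 genes, ordered by their level in IL_24h (x axis). Symbols stand for the means of IL_24h and TNF_24h, the mean of libraries 2 and 3 of IL_TNF_24h and library 1 of IL_TNF_24h, and IL_24h lies below TNF_24h for 30 genes and above it for 10.

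TNF given together with IL-4 and IL-13 was compared with IL-4 and IL-13 alone at the same time, within a set of libraries. At 6 h, Mki67 and Kif4 were higher in IL_TNF_6h than in IL_6h, and Cenpa and Kif23 were lower. Mki67 differed by 1.11 ± 0.31 (adjusted p 0.0183) and Kif4 by 1.45 ± 0.40 (adjusted p 0.0168), where 7.09% of genes tested were raised. Kif4 had 3.07, 4.06 and 6.28 CPM in IL_TNF_6h, against 1.10, 2.35 and 1.47 CPM in IL_6h, and neither gene overlapped between the groups. Of the 40 genes these were the only 2 with all IL_TNF_6h libraries above all IL_6h libraries, against 12.9% of genes tested. Both calls ended when library 1 or library 3 of IL_6h or library 3 of IL_TNF_6h was left out, with Mki67 at 0.91 to 1.03 and Kif4 at 1.13 to 1.37 on the log2 scale. Kif23 had 3.87, 3.33 and 3.67 CPM in IL_TNF_6h, against 8.61, 10.1 and 9.71 CPM in IL_6h, a difference of -1.39 ± 0.21 (adjusted p 9.49e-05). Lowered calls were made for 6.98% of all genes tested. With 2 of 40 genes, or 5.0%, called in each direction, these counts were near the background shares. Of the 40 genes, 35 had lower values in IL_TNF_6h than in IL_6h. The median log2 difference of the 40 was -0.49, against -0.01 over all genes tested. Without library 1 of IL_TNF_24h the median was also -0.49 and the lowered count was 14, against 7.05% of genes tested. Esco2 had the lowest value of the 40 genes, -2.08 ± 0.86, and was not called (adjusted p 0.136, or 0.00222 without library 1).

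At 24 h all 40 genes had lower values in IL_TNF_24h than in IL_24h, with a median log2 difference of -1.23, and 17 of them were called, against 5.08% of genes tested. For all 40, every IL_TNF_24h library was below every IL_24h library, which held for 18.8% of genes tested. Among the 17 were Cdk1 (-1.18 ± 0.32), Ccnb1 (-1.22 ± 0.37), Plk1 (-1.52 ± 0.48), Cdc20 (-1.42 ± 0.39), Cenpa (-1.30 ± 0.24) and Mki67 (-1.28 ± 0.31). Without library 1 the median was -0.75 and 21 genes were called lower, against 3.92% of genes tested. The values without it were -0.75 for Cdk1, -0.77 for Ccnb1, -0.98 for Plk1, -0.93 for Cdc20, -0.96 for Cenpa and -0.89 for Mki67, all called, so the direction did not rest on that library, while the size did. The count fell to 5 without library 2 of IL_24h, where 508 of 16493 genes tested were lowered. It was 7 without library 1 or library 3 of that group, against 511 of 16497 and 543 of 16504. In a fit of IL_TNF_24h and IL_24h alone it was 4, near the share of all genes tested there, 1123 of 14039. Summed dendritic cell markers ran between 23.5 and 28.4 CPM in IL_TNF_24h, against at most 10.96 CPM in any library outside it, with 4 of the 6 markers detected there and Siglech and Cd209a at 0. Neutrophil markers summed to 14.2 to 17.3 CPM, against at most 7.18 CPM outside it, with 6 of 8 detected and Ly6g and Retnlg at 0. The part of such cells in these values was not tested.

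IL-4 with IL-13 and TNF were also compared directly. At 6 h, 24 of the 40 genes were lower in IL_6h than in TNF_6h and none was called higher, where 27.1% of genes tested were lowered. All IL_6h libraries were below all TNF_6h libraries for 29 genes, against 31.7% of genes tested. Ube2c (-3.77 ± 0.58), Cenpm (-3.31 ± 0.68) and Ccnb2 (-2.95 ± 0.49) were among the largest differences, while the 5 cytokinesis genes were not called and lay between -1.17 (Prc1, adjusted p 0.00898 without library 1) and 0.10 (Ect2). At 24 h, 17 genes were lower in IL_24h than in TNF_24h and none was called higher, against 27.9% of genes tested. The count was 7 without library 1 of TNF_24h, where 3753 of 16488 genes tested were lowered. It was 11 without library 1 or library 3 of IL_24h, where 3809 of 16497 and 3939 of 16504 were lowered. These counts were near or under the shares of all genes. For 26 genes all IL_24h libraries were below all TNF_24h libraries (33.3% of genes tested), and for Cenpf and Anln all were above (37.5%). Kif20a had the highest value there, 0.56 ± 0.43, and was not called (adjusted p 0.271).

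Differences between the IL groups and the TNF or untreated groups followed transcript length over all genes. Across 12852 genes with a known length, Spearman's rho between length and log2 fold change was 0.38 for IL_6h against Ctrl_0h and 0.42 for IL_24h against TNF_24h. It was 0.03 for TNF_6h and 0.09 for TNF_24h against Ctrl_0h. The genes of one comparison share their libraries, and rho is given as a description. In IL_6h against Ctrl_0h the median was -0.67 over the genes of up to 2203 bases and 0.57 over those above 3792 bases. Among the 40 genes rho was 0.67 for IL_24h against Ctrl_0h and 0.64 for IL_24h against TNF_24h. Short transcripts such as Cenpm, Spc24 and Pimreg, of 1201, 1349 and 1513 bases, were low in IL_24h, and long ones such as Anln, Cenpf and Kif11, of 5421, 11137 and 4819 bases, were high. The order was loose, since Cenpa, of 1354 bases, stood at 70.1% of Ctrl_0h in IL_24h, above the 54.5% of Top2a and the 45.2% of Kif4, of 5221 and 4983 bases. With an offset that removed the trend in each library, 30 of the 40 genes were called lower in IL_24h against Ctrl_0h and 9 in TNF_24h against Ctrl_0h. IL_24h against TNF_24h gave 11 lowered calls in place of 17. In the same order, 4495, 3615 and 3919 of the 15581 genes tested were lowered with this offset. The counts of 9 and 11 were thus near the shares of all genes. In IL_24h against Ctrl_0h with this offset Kif20a stood at 0.39, Prc1 at 0.32, Ect2 at -0.32, Anln at -0.46 and Cenpm at -2.32 on the log2 scale, with Cenpm alone of these called. The sets of libraries, the treatment and the length trend cannot be told apart for IL-4 and IL-13, and the cytokinesis genes, whose median in IL_24h was the highest of the roles, have transcripts of 3049 to 5421 bases.

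**Figure D4:**
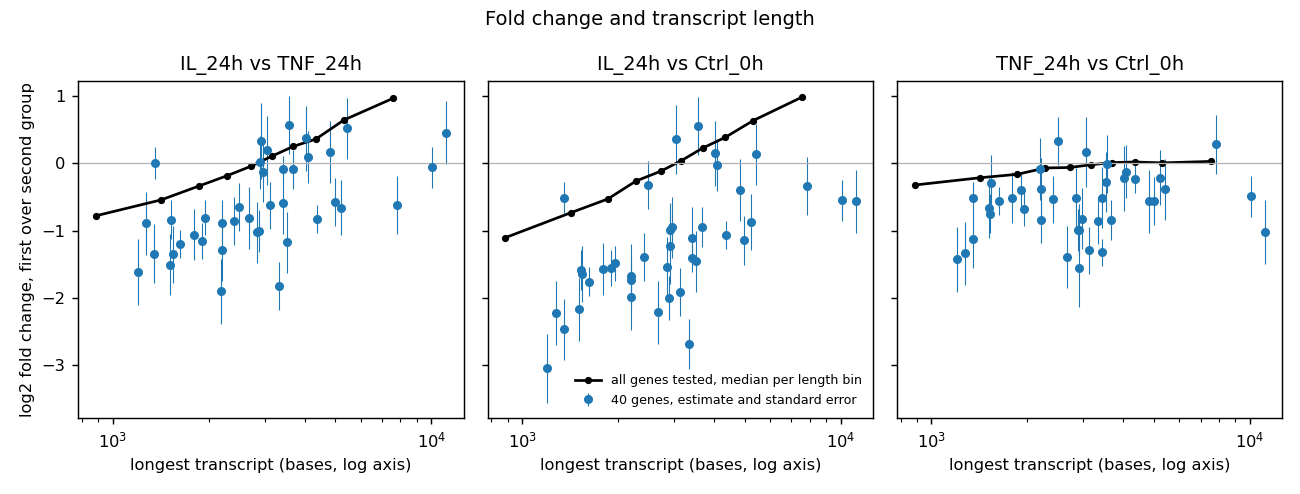
Log2 fold change (y axis) against the length of the longest transcript in bases on a log axis (x axis) for IL_24h against TNF_24h, IL_24h against Ctrl_0h and TNF_24h against Ctrl_0h. Points with standard errors are the 40 genes and the line joins medians over 10 length bins of all genes tested with a length, which rise with length in both IL_24h panels (rho 0.42 and 0.43) and hardly in TNF_24h against Ctrl_0h (0.09).

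Whether the change between 6 h and 24 h differed between treatments was tested as a difference of differences. In the IL_TNF groups it was smaller than in the IL groups for Mki67 (-2.40 ± 0.44, adjusted p 0.00276) and Kif4 (-2.33 ± 0.54, adjusted p 0.0168), where 1.78% of genes tested were called in that direction, and no gene of the 40 was called in the other. Without library 1, Mki67 stood at -2.01 (adjusted p 0.000215) and Kif4 at -1.91 (adjusted p 0.00368). Tpx2 at -0.79 (adjusted p 0.0121) was then called as well, and Cenpa in the other direction at 0.69 (adjusted p 0.0468), where 2.19% and 2.04% of genes tested were called. Esco2 had the highest value, 1.16 ± 1.03, and was not called (adjusted p 0.788). In the IL groups the change was larger than in the TNF groups for Aunip (2.92 ± 0.83, adjusted p 0.0149), Sapcd2 (1.84 ± 0.64, adjusted p 0.0455) and Bub1b (1.49 ± 0.43, adjusted p 0.0174), where 10.9% of genes tested were called, and smaller for Spc25 (-1.22 ± 0.43, adjusted p 0.0463), where 11.6% were called. With all libraries these 3 and 1 of 40 genes, or 7.5% and 2.5%, were under the background shares. Without library 1, 21 of the 40 had a larger change in the IL groups, against 11.1% of genes tested, and 2 a smaller one, against 11.2%. With no library left out, 20 had a larger change where no filter was used, against 1572 of 32292 genes tested. A fit of the compared groups alone gave 22, against 1986 of 14690. The larger share among the 40 genes thus depended on the fit as well as on this library.

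Other genes of mitosis, from lists that hold none of the 40, mostly fell at 6 h too. Of 13 tested inner kinetochore genes (CENP proteins), 12 fell in IL_6h, 13 in TNF_6h and 12 in IL_TNF_6h. The lowest of them in IL_6h and in TNF_6h was Cenph (-4.85 ± 0.54 in IL_6h and -3.25 ± 0.50 in TNF_6h), and Cenpc1, which binds centromeric chromatin directly, had -0.09 ± 0.22 in IL_6h. Of 16 outer kinetochore and checkpoint genes, 16, 15 and 15 fell under the same treatments, and of 20 spindle and cytokinesis genes 19, 20 and 19. Mis12, a core subunit of the outer kinetochore, stood at -0.19 ± 0.12 in TNF_6h, and Ckap5, a microtubule polymerase, at -0.05 ± 0.17 in IL_TNF_6h. All or nearly all of the 24 DNA replication genes fell as well, with 23 in IL_6h, 24 in TNF_6h and 24 in IL_TNF_6h, so the fall was not limited to mitosis.

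Lists that hold general subunits were mixed. Their counts are to be read against the shares of all genes tested, of which those lowered are given above, and 32.8% were raised in IL_6h, 18.8% in TNF_6h and 33.8% in IL_TNF_6h. Values in IL_6h and IL_TNF_6h against Ctrl_0h also carry the trend with transcript length given above (rho 0.38 and 0.33 over all genes). The part of this trend in the rises and falls below was not tested. Of 18 condensin and cohesin genes, 11 fell and 4 rose in IL_6h, 14 fell and 1 rose in TNF_6h, and 12 fell and 3 rose in IL_TNF_6h. The 4 that rose in IL_6h were the cohesin subunits and partners Stag1 (0.70 ± 0.16), Stag2 (1.08 ± 0.20), Pds5a (0.72 ± 0.18) and Pds5b (0.58 ± 0.20). Pttg1, securin, which keeps separase inactive until anaphase, rose in TNF_6h (1.23 ± 0.17, adjusted p 1.02e-05) and fell in IL_6h (-2.24 ± 0.18, adjusted p 4.66e-09). Of 11 genes of the MuvB complex and its partners, 5 fell in IL_6h, 6 in TNF_6h and 4 in IL_TNF_6h, and 1 rose in each, so the last count of falls was near the 33.4% of all genes. Mybl2, which encodes B-Myb, was the lowest of them (-5.22 ± 0.48 in IL_6h, -3.74 ± 0.44 in TNF_6h and -4.93 ± 0.47 in IL_TNF_6h). Rbl2, the pocket protein p130 of resting cells, rose in IL_6h (1.69 ± 0.24) and in IL_TNF_6h (1.40 ± 0.24), and E2f4, its repressor partner, rose in TNF_6h (0.44 ± 0.17). Of 16 genes of the anaphase-promoting complex and its cofactors, 10 fell in IL_6h, 6 in TNF_6h and 9 in IL_TNF_6h, and 3, none and 3 rose. Ube2s, its chain-extending enzyme, fell most (-3.01 ± 0.18 in IL_6h), and the core subunit Cdc27 rose most (1.11 ± 0.20 in IL_6h).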

How the data were processed

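The authors deposited raw counts of reads per gene for 21 libraries. Per the submitters' processing notes, the genome build GRCm38 and the programs TopHat2 (2.0.12), featureCounts, Subread (1.6.3) and edgeR (3.28.1) were used. The annotation used for counting is not given in the sources used here, nor is the strand setting.

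Identifiers were matched to symbols with a table of gene names, and these symbols to current ones with RefSeq tables where possible. Aunip, Sapcd2 and Pimreg were found through older symbols. Of 32292 identifiers with a count, 15581 passed filterByExpr of edgeR by group and held 99.94% of the counts. After TMM scaling, all 21 libraries entered 1 model that has a term for each group, with edgeR 4.0.16 and limma 3.58.1 under R 4.3.3. The edgeR quasi-likelihood F test was run on 15 contrasts, with Benjamini-Hochberg adjustment over all genes tested and a threshold of 0.05. Standard errors are the size of the log2 fold change divided by the square root of F. The common biological coefficient of variation was 22.82%. The method was tested on simulated data, with changes planted between IL_6h and Ctrl_0h. These data held independent libraries, no outlying library and no length trend in that comparison, so the effect of such features was not tested there.

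The 40 genes, the other lists and the rule for named genes were chosen with earlier results of these data known. Values per library are given for 16 genes picked for their roles, for the highest and the lowest of the 40 in each contrast and for genes not called where nearly all were. Genes outside the 40 are named where they ran against their list at 6 h or as its highest or lowest. Alternatives were the size factors and the Wald test of DESeq2 1.42.0, no filter or one of 1 CPM in 3 libraries, a fit of only the groups compared, a block for the replicate number, and fits without single libraries or without several at once. An offset for transcript length, and leaving out library 1 of IL_TNF_24h for contrasts without that group, were added after seeing the data.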

Additional observations from a re-analysis of the deposited data

Results flagged for a closer look

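For 6 of the 40 genes the change between 6 h and 24 h differed between treatments by a test of the difference itself (edgeR quasi-likelihood test, adjusted over all genes). The change in the IL_TNF groups minus that in the IL groups was -2.40 on the log2 scale for Mki67 and -2.33 for Kif4. These are 5.0% of the 40 genes, against 1.78% of genes tested. The change in the IL groups minus that in the TNF groups was 2.92 for Aunip, 1.84 for Sapcd2, 1.49 for Bub1b and -1.22 for Spc25. The larger and smaller changes there are 7.5% and 2.5% of the 40 genes, under the 10.9% and 11.6% of genes tested.

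Mki67 was called under all 21 alternatives run for it, with values between -2.77 and -2.01. Kif4 lost its call under 4 of 21 (-2.70 to -1.91), Aunip under 1 of 22 (2.57 to 3.16), Bub1b under 2 of 22 (1.39 to 1.58), Sapcd2 under 11 of 22 (1.56 to 2.37) and Spc25 under 13 of 22 (-1.41 to -1.04). No direction changed among these. For IL_TNF against IL, the groups compared at each time lie within a set of libraries, so a shift common to a set cancels on the log2 scale. For IL against TNF it does not, since the 24 h and 6 h IL groups lie in different sets, as do the IL and TNF groups. The part of these sets in the differences was not tested.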

How the results depend on the processing

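The 40 lowered calls of each 6 h group against Ctrl_0h and the 40 raised calls of IL_24h against IL_6h were made under every alternative run, and DESeq2 size factors moved no count of calls by over 1.5 times. The comparisons among treatments and those of 24 h with Ctrl_0h depended on settings, and apart from the libraries named above the cause was not tested.

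Counts of genes called are given for each setting that moved them. Without a filter, TNF_24h against Ctrl_0h had 25 lowered, IL_24h against Ctrl_0h 1 raised, IL_TNF_6h against IL_6h 13 lowered, IL_TNF_24h against IL_24h 39 lowered, IL_6h against TNF_6h 1 raised, IL_24h against TNF_24h 2 raised and 26 lowered, the change with time 14 smaller in the IL_TNF than in the IL groups, and 20 larger in the IL than in the TNF groups. Over all 32292 genes tested without a filter, the counts in the same order were 4469, 4722, 970, 881, 4179, 4262, 3934, 366 and 1572. With a filter of 1 CPM in 3 libraries, IL_6h against TNF_6h had 1 raised, against 4525 of 12883 genes tested. With the compared groups alone, TNF_24h against Ctrl_0h had 27 lowered, IL_TNF_6h against IL_6h 6 lowered, IL_TNF_24h against IL_24h 4 lowered, IL_6h against TNF_6h 1 raised, IL_24h against TNF_24h 2 raised and 26 lowered, and the change with time 1 smaller in IL_TNF than in IL, and 22 larger and 2 smaller in IL than in TNF. In the same order, the counts over all genes tested were 2695 of 13419, 870 of 14081, 1123 of 14039 and 4640 of 13873. The rest were 4857 and 4851 of 13924, 288 of 14894, and 1986 and 2110 of 14690. In these fits Aunip and Ska1 did not pass the filter in IL_TNF_24h against IL_TNF_6h and in IL_TNF_6h against IL_6h. Sapcd2 did not pass it in the comparison of IL_TNF_6h with IL_6h, and such genes were not tested there. With library 2 of Ctrl_0h, library 1 of IL_TNF_24h and library 3 of TNF_6h left out together, TNF_24h against Ctrl_0h had 27 lowered and IL_TNF_6h against IL_6h 14 lowered, and the counts were, for IL_6h against TNF_6h, 1 raised, for IL_24h against TNF_24h 3 raised and 26 lowered, and for the change with time 1 larger and 4 smaller in IL_TNF than in IL and 20 larger in IL than in TNF. Over all 15745 genes tested in that fit, the counts in the same order were 3029, 1394, 4887, 5091, 4717, 496, 496 and 1819. With the collagen-bearing library 2 of IL_6h and library 3 of IL_TNF_6h left out, TNF_24h against Ctrl_0h had 8 lowered. IL_TNF_6h against IL_6h then had 0 raised, and the change with time was larger for 1 and smaller for 0 in IL than in TNF. Over all 16267 genes tested these counts were 3786, 920, 1724 and 1792. The DESeq2 Wald test gave 5 lowered in IL_TNF_6h against IL_6h and 4 smaller changes with time in IL_TNF than in IL. Over all 15581 genes tested these were 1297 and 422. The offset for transcript length, chosen after seeing the data, gave 2 raised in IL_6h against TNF_6h and 11 lowered in IL_24h against TNF_24h. Over all 15581 genes tested with it these were 3969 and 3919. Among values called in either fit the offset turned 1 sign. That was Mki67 in IL_6h against TNF_6h, which was -0.81 (adjusted p 0.0261) in place of 0.36 (adjusted p 0.34). Turned signs of values called in neither fit, such as that of Anln in IL_24h against Ctrl_0h, are not in this count.

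With each library left out in turn, the lowered counts ran between 24 and 32 in IL_24h, 2 and 21 in TNF_24h and 36 and 39 in IL_TNF_24h against Ctrl_0h. They ran between 2 and 14 in IL_TNF_6h against IL_6h (raised 0 to 2), 5 and 25 in IL_TNF_24h against IL_24h, 20 and 30 in IL_6h against TNF_6h (raised 0 to 1), and 7 and 25 in IL_24h against TNF_24h (raised 0 to 2). Raised counts over time ran between 39 and 40 under TNF and 37 and 39 with all cytokines. The change with time was smaller for 1 to 3 and larger for 0 to 1 in IL_TNF than in IL. It was larger for 1 to 21 and smaller for 0 to 2 in IL than in TNF. These ranges are counts among the 40 genes, and the counts over all genes tested also changed from fit to fit.

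Replicate numbers did not pair the samples: of 63 correlations between libraries of the same number, 6 were over 0.1, and they ran between -0.31 and 0.36. Libraries of different numbers were not correlated, so a pairing under other numbers was not tested. Library 2 of IL_6h and library 3 of IL_TNF_6h, both with collagen counts, also had the highest Xist of their groups, 1014 and 882 CPM. With the replicate block, the change with time was smaller in IL than in TNF for 0 genes in place of 1. Depth limits Aunip and Ska1 most, which had 0 to 0.115 CPM of Aunip in libraries of IL_6h and IL_TNF_6h.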
